A study of Homo sapiens with 2 samples.

Results

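The 10 genes described here encode the kinases ACK1 (TNK2) and TNK1, the C-terminal Src kinase CSK with its relative MATK, the CSK adaptor PAG1, and the SRC-family kinases SRC, LCK, LYN, FYN and YES1. They were taken by symbol from a table of 60671 genes, and all 10 had a row and passed a minimum of 10 counts over both libraries, as 23446 genes did. Poly-A RNA was sequenced from C4-2B cells, a castration-resistant prostate cancer line derived from LNCaP, given vehicle or (R)-9b, a small-molecule ACK1 inhibitor that the sample labels put at 1 µM overnight. The labels name neither the vehicle nor any engineered change, and the line itself is shared by both groups. There was 1 library per condition, with 65207444 counts in vehicle and 57653965 in (R)-9b.

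With 1 library on each side there was no measure of the spread between cultures, and no test of the treatment could be made. Counts were scaled between libraries with TMM, and each ratio of (R)-9b over vehicle carries an exact (Clopper-Pearson) 95% interval that covers counting error only. The interval was computed on the counts divided by 2, because among genes with 1 to 20 counts 72.2% in vehicle and 70.3% in (R)-9b were even, the pattern left when the 2 reads of a fragment are counted separately. A gene is called higher or lower here when the whole interval lies beyond a ratio of 1.5 in that direction, which compares these 2 libraries and not the 2 conditions.

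ACK1 is a cytoplasmic tyrosine kinase that binds the activated form of the small GTPase CDC42, and in prostate cancer it is known for phosphorylating the androgen receptor. CSK restrains every SRC-family kinase by phosphorylating a tyrosine near the end of its C-terminal tail, which then folds back on the SH2 domain of the same protein. PAG1 is a membrane adaptor that brings CSK to lipid rafts, and LCK is the kinase that starts T-cell receptor signalling. The study examined phosphorylation of CSK by ACK1 at a tyrosine in the SH3 domain. RNA levels carry no information on any of these phosphorylations.

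The sites at which these kinases meet are shown as coding sequence because they define how the members relate to each other. Each stretch below was read from the GENCODE 29 transcripts on GRCh38, 5′ to 3′ on the coding strand, with the regulatory tyrosine codon in capitals. CSK is shown from codon 10 to 25 with tyrosine codon 18 (chr15:74798627-74798674, plus strand), and the SRC-family kinases are shown over their last 16 codons before the stop. These tails lie at chr20:37403329-37403376 (plus strand) for SRC, with tyrosine codon 530, at chr18:724427-724474 (minus strand) for YES1, with codon 537, at chr6:111661742-111661789 (minus strand) for FYN, with codon 531 of the longer form, and at chr1:32285666-32285713 (plus strand) for LCK, with codon 505.
CSK-202: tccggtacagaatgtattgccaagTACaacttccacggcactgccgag
SRC-201: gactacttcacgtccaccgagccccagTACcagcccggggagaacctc
YES1-201: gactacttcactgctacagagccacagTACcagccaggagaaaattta
FYN-202: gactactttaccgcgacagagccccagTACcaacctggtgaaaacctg
LCK-214: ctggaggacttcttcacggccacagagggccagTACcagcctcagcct
The marked codon was taken as the first tyrosine codon of CSK and as the last one of each of the 4 SRC-family kinases shown. Codons 18 of CSK and 505 of LCK are positions that the study names. The marked codon had 6 codons after it in SRC, YES1 and FYN and 4 in LCK.

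FYN was the gene of the 10 that differed most between the libraries, at 981 counts in vehicle and 83 in (R)-9b, and it was called lower. In bulk RNA, fewer cells that express a gene and less RNA per cell cannot be told apart. LCK was called higher, at 221 and 381 counts. The other 8 genes were not called. TNK1 had a ratio of 1.60, and those of the 7 remaining genes ran from 0.715 to 1.30. At this limit 1 of the 10 was called higher and 1 lower, where 6.03% of all 23446 genes were called higher and 5.43% lower, so that calls among the 10 were about as frequent as among all genes. Against a ratio of 1 in place of 1.5, the whole interval lay above it for 4 of the 10 and below it for 5, where 24% and 25.2% of all genes did. A counting interval narrows as counts rise, so a small ratio can pass this lower limit in a gene with many counts. The share among genes of like abundance was not computed. Beyond a ratio of 2, none was higher and 1 was lower, with 2.64% and 2.24% of all genes. The median log2 ratio of the 10 was 0.05, beside -0.0017 over all genes and -0.00053 over the 14791 protein-coding genes, whose middle 50% ran from -0.34 to 0.36.

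**Figure D1:**
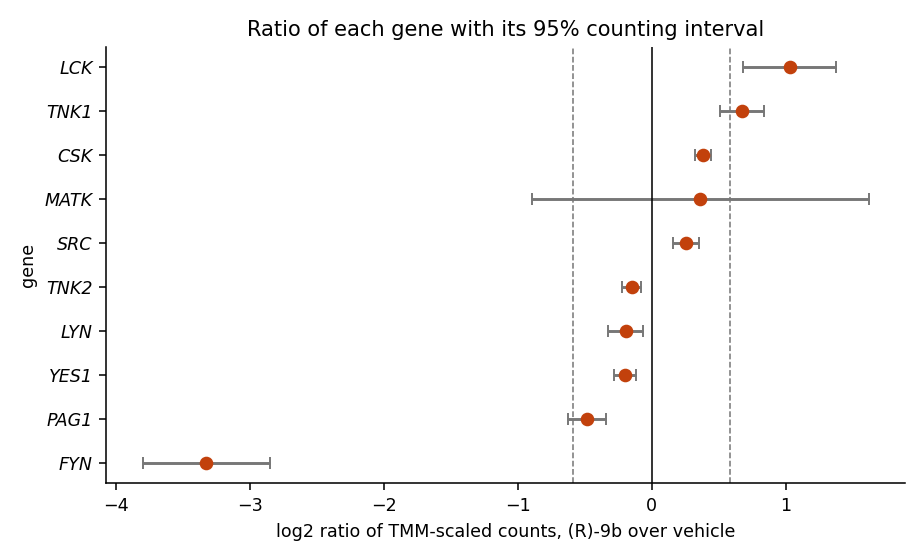
Log2 ratio of TMM-scaled counts, (R)-9b over vehicle, for each of the 10 genes, with bars for the exact 95% counting interval and dashed lines at ratios of 1.5 in either direction. LCK at 1.03 and FYN at -3.32 have whole intervals beyond the dashed lines, and MATK has an interval from -0.89 to 1.62.

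TNK2 (ENSG00000061938), the gene of the inhibited kinase, lies on the minus strand at chr3:195863364-195911945. It had 6946 counts in vehicle and 5292 in (R)-9b, or 104 and 93.8 TMM-scaled CPM. The (R)-9b library was slightly lower, with a log2 ratio of -0.15 and an interval from -0.22 to -0.08, well inside the limit of 1.5. TNK1, the closest relative of ACK1, had 1072 counts in vehicle and 1447 in (R)-9b, or 16.1 and 25.7 CPM. Its ratio of 1.60 had an interval from 1.43 to 1.79, which reached below 1.5. Per kb of exon, the level of TNK2 was 2.08 times that of TNK1 in vehicle and 1.17 times in (R)-9b.

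An antisense RNA gene, TNK2-AS1, overlaps the 5′ part of TNK2 on the opposite strand at chr3:195908076-195911257. It had 641 counts in vehicle and 200 in (R)-9b, a log2 ratio of -1.44 with an interval from -1.78 to -1.11. The 250 bases before the RefSeq start of TNK2 that lies furthest upstream (chr3:195908552-195908801, minus strand) fall inside TNK2-AS1. The strand setting of the counting is not given in the sources used here. Without strand, reads from TNK2 and TNK2-AS1 where they overlap cannot be told apart. The study's methods describe counting only unambiguous reads with a unique alignment, but not how reads of this overlap were treated. The part of the antisense gene in the TNK2 ratio was not tested.

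CSK (ENSG00000103653), at chr15:74782057-74803198 on the plus strand, was the highest of the 10 per length in both libraries. It had 9023 counts in vehicle and 9958 in (R)-9b, or 135 and 177 CPM. The log2 ratio was 0.38, with an interval from 0.32 to 0.44, so CSK RNA was higher in the (R)-9b library by more than counting error, but under the limit of 1.5. On summed estimated transcript counts the log2 ratio was 0.094, with an interval from -0.08 to 0.27 that held 0. MATK, the other kinase able to phosphorylate SRC-family tails, had 23 counts in vehicle and 25 in (R)-9b, or 0.345 and 0.443 CPM. Nothing can be read from MATK beyond its low level, since its interval ran from a ratio of 0.539 to 3.07. PAG1, the adaptor that anchors CSK at the membrane, had 2240 counts in vehicle and 1356 in (R)-9b, or 33.6 and 24.0 CPM. Its log2 ratio of -0.48 had an interval from -0.62 to -0.34, so the lower end passed the limit of 1.5 and the upper end did not. CSK and its anchor differed in opposite directions between the libraries, each by less than the limit.

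Among the SRC-family kinases, SRC itself had 3477 counts in vehicle and 3512 in (R)-9b, or 52.2 and 62.3 CPM, a log2 ratio of 0.26 with an interval from 0.16 to 0.35. YES1, the member closest to SRC in sequence, had 5434 and 4005 counts, or 81.5 and 71.0 CPM, a log2 ratio of -0.20 with an interval from -0.28 to -0.12. LYN, best known from B cells and myeloid cells, had 2263 and 1676 counts, or 34.0 and 29.7 CPM, a log2 ratio of -0.19 with an interval from -0.32 to -0.06. These 3 kinases, together the bulk of the family RNA, stayed inside a ratio of 1.5 in both directions.

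LCK (ENSG00000182866), at chr1:32251239-32286165 on the plus strand, had 221 counts in vehicle and 381 in (R)-9b, or 3.32 and 6.76 CPM. The ratio was 2.04 with an interval from 1.60 to 2.59, and 88.9% of all genes had a ratio at or below it. On summed estimated transcript counts, 76 in vehicle and 141 in (R)-9b, the log2 ratio was 1.14 but its interval, from 0.56 to 1.76, crossed the limit of 1.5 (0.58 on this scale). LCK is known as a T-cell kinase, and it was a low gene here, with CSK at 29.8 times its level per kb of exon in vehicle and 19.1 times in (R)-9b. FYN (ENSG00000010810), at chr6:111660332-111873452 on the minus strand, is found in brain, T cells and many epithelia. It had 981 counts in vehicle and 83 in (R)-9b, or 14.7 and 1.47 CPM. The (R)-9b level was lower by a factor of 10.0, with an interval from 7.21 to 13.9, and 0.427% of all genes had a ratio at or below it.

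Per kb of exon, the order of the 10 genes in vehicle was CSK at 29.6 CPM per kb, YES1 at 16.0, TNK2 at 8.67, SRC at 8.06, LYN at 5.49, TNK1 at 4.17, PAG1 at 3.05, FYN at 1.99, LCK at 0.993 and MATK at 0.0833. In (R)-9b, CSK at 38.6 and YES1 at 13.9 remained first and second, and SRC at 9.63 stood above TNK2 at 7.81. TNK1 at 6.65 stood above LYN at 4.80 and PAG1 at 2.18. LCK at 2.02 stood above FYN at 0.199, the reverse of their order in vehicle, and MATK at 0.107 was last. With 1 library per condition, the spread needed to separate neighbours in this order was not measured. Exon length is the union over all annotated exons, so a gene expressed as a short form is understated on this scale.

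**Figure D2:**
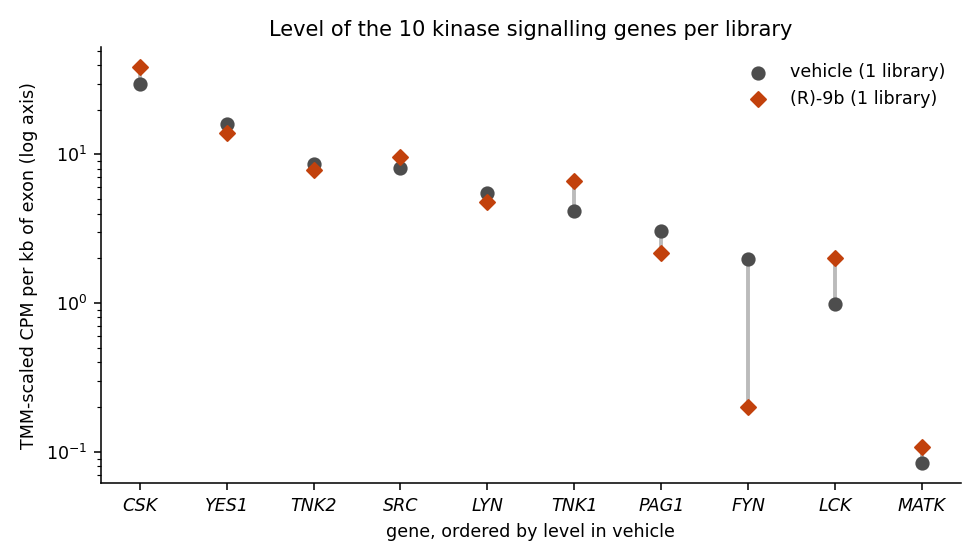
Level of each of the 10 genes in the vehicle library (circles) and the (R)-9b library (diamonds), as TMM-scaled CPM per kb of exon on a log axis, ordered by the level in vehicle. FYN drops from 1.99 to 0.199 CPM per kb and LCK goes from 0.993 to 2.02, while CSK stays highest in both libraries.

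As a share of the summed level of the 5 SRC-family members per kb of exon, YES1 held 49.2% in vehicle and 45.5% in (R)-9b, SRC 24.8% and 31.5%, and LYN 16.9% and 15.7%. FYN went from 6.11% to 0.649% of this sum and LCK from 3.05% to 6.62%. The sum itself was 32.5 CPM per kb in vehicle and 30.6 in (R)-9b. In these units the large ratio of FYN touched a small part of the family RNA.

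The transcripts of these genes were read from a second deposited table of estimated counts, which is several times smaller than the gene counts. The gene count was 2.72 times the summed estimated count in vehicle and 2.73 times in (R)-9b for the median of 11236 genes with at least 50 estimated counts in each library. For TNK2 it was 3.09 and 3.26 times, and for LCK 2.91 and 2.7 times. For CSK it was 8.0 and 9.82 times, and CSK-201, the 1 CSK transcript of GENCODE 29 that is missing from these values, was not analysed here. Shares below are of the estimated counts of the transcripts analysed, with exact binomial 95% intervals on these counts divided by 2.

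Of the 22 TNK2 transcripts in GENCODE 29, 19, TNK2-201 among them, were not analysed here, and shares are of the 29 that were. Among these, TNK2-227 was the main transcript in both libraries, with 1442 estimated counts in vehicle and 893 in (R)-9b. It made up 64.2% of these estimated counts in vehicle (interval 61.3% to 67.0%) and 55.0% in (R)-9b (51.6% to 58.5%). How many other genes had shares that differed as much was not counted. TNK2-222 went from 224 to 343 estimated counts, or from 9.95% (8.28% to 11.9%) to 21.2% (18.4% to 24.2%). TNK2-211 had 286 estimated counts in vehicle, a share of 12.7%, and 0 in (R)-9b, which allows a share of up to 0.453% by the upper end of its interval. All 3 are annotated as protein-coding. Transcripts of one gene share most of their sequence, and an estimate that moves from one to another at a count of 0 can be a shift of the assignment. That error is not in the intervals, and none of the 3 was present under its identifier in the GENCODE 29 annotation, so their exons are not described here.

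CSK-202, with 450 codons, had 853 estimated counts in vehicle and 690 in (R)-9b. It was 75.6% of the CSK transcripts analysed in vehicle (72.0% to 79.2%) and 68.0% in (R)-9b (63.8% to 72.1%). CSK-209, which retains an intron, had 150 and 151 estimated counts, or 13.3% (10.6% to 16.4%) and 14.8% (12.0% to 18.4%). All 8 retained-intron transcripts of CSK together made up 20.2% in vehicle (17.0% to 23.8%) and 27.0% in (R)-9b (23.2% to 31.1%), intervals that overlapped at their ends.

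**Figure D3:**
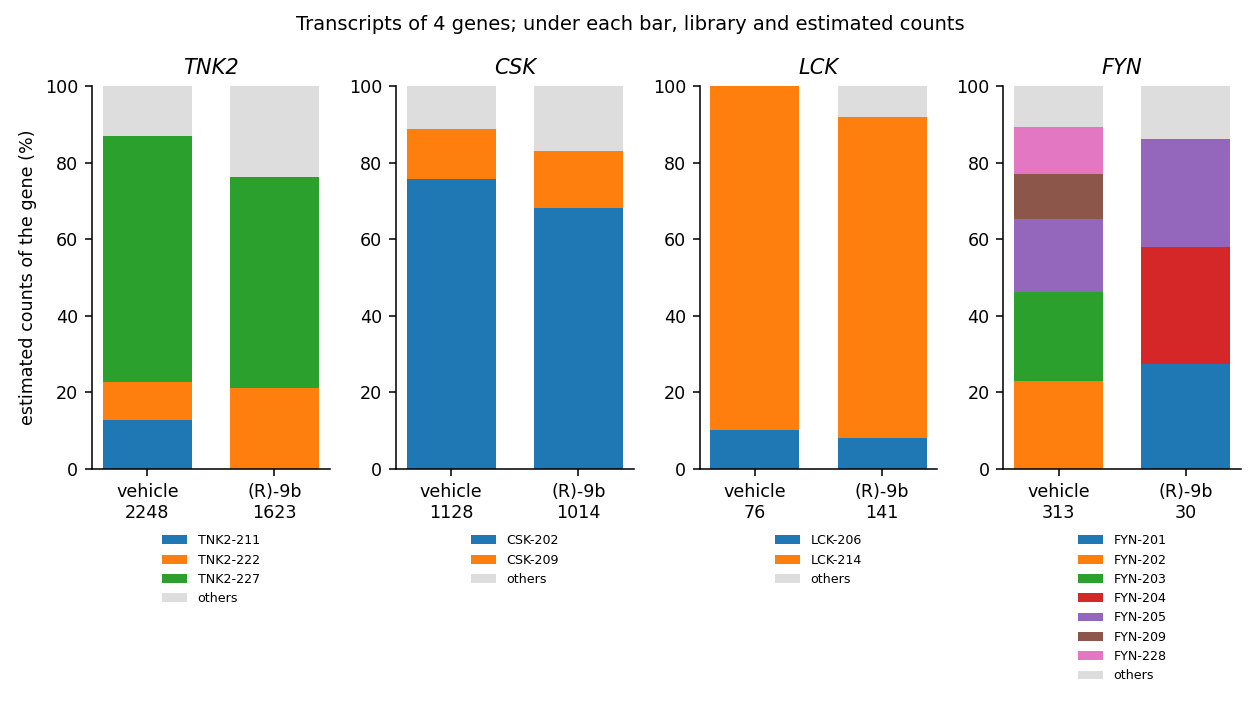
Stacked bars of the share of estimated counts held by each transcript with at least 10% in either library, for TNK2, CSK, LCK and FYN, with the estimated counts of the gene under each bar. TNK2-227, CSK-202 and LCK-214 hold the largest share of their genes in both libraries, whereas the FYN transcripts of the vehicle and (R)-9b bars differ, the latter resting on 30 estimated counts.

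LCK transcripts start at 2 places that are 22.9 kb apart. Among the transcripts analysed, the downstream start carried most of the estimate in both libraries. LCK-214, with 509 codons, starts at the downstream site and had 68.2 estimated counts in vehicle and 118 in (R)-9b. It was 89.7% of LCK in vehicle (75.2% to 97.1%) and 83.7% in (R)-9b (72.3% to 91.0%). LCK-206, with 516 codons, starts at the upstream site and had 7.80 and 11.5 estimated counts, or 10.3% (2.94% to 24.8%) and 8.13% (3.16% to 17.5%). Summed by start, the downstream site had 89.7% in vehicle and 90.0% in (R)-9b (80.7% to 95.9%). For the transcripts analysed, the use of the 2 starts was thus alike within wide intervals, while LCK as a whole was higher in (R)-9b. LCK-202, the 1 LCK transcript of GENCODE 29 that is missing from these values, was not analysed here. Its part in the split between the starts is unknown, so the split may differ from that of all LCK RNA.

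**Figure D4:**
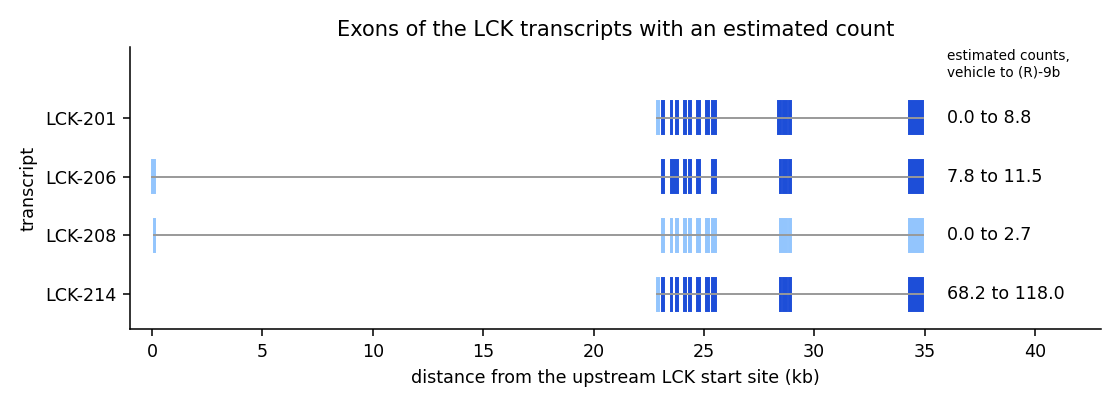
Exons of the LCK transcripts with an estimated count, by distance in kb from the upstream start, with exons that hold coding bases in dark blue, other exons in light blue, and the estimated counts in vehicle and (R)-9b at the right. LCK-214, from the start at 22.9 kb, has 68.2 and 118.0 estimated counts, and LCK-206, from the upstream start, has 7.8 and 11.5.

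The 250 bases before each RefSeq start of LCK (GRCh38.p14, plus strand) are printed because the estimate above is divided so unevenly between the 2 places. These RefSeq starts, chr1:32251265 and chr1:32274121, are not those of GENCODE 29. There LCK-206 starts at chr1:32251239 and LCK-214 at chr1:32274111, so both windows run past those starts. The first window is upstream, at chr1:32251015-32251264, and the second is downstream, at chr1:32273871-32274120. Capitals mark CAGGAAGT, a match to the ETS-family core, searched on both strands after the sequences had been read.
LCK upstream: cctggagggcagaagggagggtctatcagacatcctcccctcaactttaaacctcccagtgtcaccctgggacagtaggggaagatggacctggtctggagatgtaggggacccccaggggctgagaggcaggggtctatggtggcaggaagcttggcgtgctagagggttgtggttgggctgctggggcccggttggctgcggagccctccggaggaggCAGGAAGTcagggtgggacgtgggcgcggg
LCK downstream: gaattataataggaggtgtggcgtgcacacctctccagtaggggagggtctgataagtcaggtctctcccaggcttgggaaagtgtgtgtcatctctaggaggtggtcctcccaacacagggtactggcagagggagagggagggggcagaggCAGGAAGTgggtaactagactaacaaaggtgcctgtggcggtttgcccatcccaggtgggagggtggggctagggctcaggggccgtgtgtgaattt
Each window held 1 match. It began 30 bases before the RefSeq start in the upstream window and 97 bases before that of the downstream window. Of 35116 windows of this length before RefSeq starts, 2.60% held the 8 letters. GGGCGG, the GC box, was in neither LCK window and in 42.6% of all windows. The windows of 7 of the 10 genes were searched, 19 in all. CAGGAAGT was in windows of 2 genes, LCK and TNK2, and GGGCGG in windows of 5. The FYN window at chr6:111873072-111873321 (minus strand) held 8 GGGCGG matches, and the CSK window held none. A match is a description of letters and not a site of binding.

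FYN is made as 2 full-length forms that differ in the exon linking the SH2 and kinase domains, with 537 codons in the form typical of brain and 534 in the form typical of T cells. The 2 transcripts of the longer form together had 145 estimated counts in vehicle and 0 in (R)-9b. The 3 transcripts of the shorter form had 59.1 and 17.6. The longer form was 46.3% of FYN in vehicle (38.5% to 54.6%) and 0% of 30 estimated counts in (R)-9b (up to 21.8%), and the shorter form was 18.9% (13.3% to 26.1%) and 58.7% (32.3% to 83.7%). The main FYN transcript by estimate was FYN-203 in vehicle, at 72.6 and 0 estimated counts, and FYN-204 in (R)-9b, at 0 and 9.18. These rest on very few estimated counts in (R)-9b.

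The main transcript was the same in both libraries for SRC, with SRC-201 at 814 and 855 estimated counts, and for YES1, with YES1-201 at 1886 and 1504. It was also the same for LYN-202, at 610 and 454, for TNK1-201, at 337 and 503, and for PAG1-201, at 871 and 501. MATK had 7 and 8 estimated counts in all, too few to name a form. Of the 10 genes, 8 had at least 50 estimated counts in each library, and the main transcript differed in 0 of these 8, where it differed in 11.7% of 10679 genes with more than 1 transcript. The sign of the summed estimated counts was that of the gene counts for all 10.

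The genes around these kinases were described in lists chosen with earlier results of these data known. The shares below therefore describe the lists and test nothing. The lists overlap in part, since genes such as WASL and BCAR1 stand in more than 1 of them. List medians stand beside the -0.0017 of all genes. Calls in the lists stand beside 6.03% of all genes called higher and 5.43% lower, and beside 24% above and 25.2% below a ratio of 1. Here too, a gene with many counts can pass a ratio of 1 by a small difference. Of 23 other cytoplasmic tyrosine kinases, 19 passed the minimum count, and 0 of these were called higher and 0 lower, with a median log2 ratio of 0.11. Against a ratio of 1, 6 lay above and 3 below. PTK2B, a calcium-responsive relative of focal adhesion kinase, was the most abundant, at 8641 counts in vehicle and 9342 in (R)-9b.

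Of the 19 partners and regulators of ACK1, all passed the minimum, 0 were called higher and 3 lower (15.8%, beside 5.43% of all genes), and the median was -0.20. Against a ratio of 1, 3 lay above (15.8%, beside 24%) and 12 below (63.2%, beside 25.2%). The 3 called lower include the ubiquitin ligases SIAH1 and NEDD4. SIAH1 had 1052 counts in vehicle and 224 in (R)-9b, a log2 ratio of -1.99 (-2.30 to -1.69), and NEDD4 had 2122 and 660, a log2 ratio of -1.44 (-1.63 to -1.26). The third was SQSTM1, the autophagy receptor p62, at 57064 and 23177 counts and a log2 ratio of -1.06 (-1.09 to -1.03). HSP90AB1, a chaperone of kinases and the most abundant gene of the list, had a log2 ratio of -0.11. Other ubiquitin ligases of the list were not called and differed in sign. SIAH2 had a log2 ratio of -0.68 (-0.78 to -0.57), WWP1 one of 0.33 (0.26 to 0.41) and NEDD4L one of 0.12 (0.08 to 0.15).

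A list of 9 genes held proteins that ACK1 phosphorylates and EZH2. Of these 9, 0 were called higher and 2 lower (22.2%, beside 5.43% of all genes), with a median of 0.01. Against a ratio of 1, 4 lay above (44.4%, beside 24% of all genes) and 4 below (44.4%, beside 25.2%). The H3K9 demethylase KDM3A had 8077 counts in vehicle and 1821 in (R)-9b, a log2 ratio of -1.91 (-2.01 to -1.80). EZH2, the methyltransferase of PRC2, had 4007 and 1744 counts, a log2 ratio of -0.96 (-1.08 to -0.84). For EZH2 the study reports binding to ACK1 that depends on kinase activity, and not phosphorylation by ACK1. It also reports less EZH2 protein after ACK1 inhibition, for which it proposes degradation outside the complex. The values here are of RNA and do not measure the protein. ATP5F1A, an ATP synthase subunit and the most abundant of the list, had a log2 ratio of 0.01 (-0.02 to 0.03).

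Of 15 adaptors and docking proteins of CSK, 10 passed the minimum, 3 of these 10 were called higher, beside 6.03% of all genes, and 1 lower, beside 5.43%, and the median was 0.13. LIME1, a raft adaptor that binds CSK as PAG1 does, had 35 counts in vehicle and 100 in (R)-9b, a log2 ratio of 1.76 (0.91 to 2.58). NHERF1, which links PAG1 to the cytoskeleton through ezrin, had 10823 and 15237 counts, a log2 ratio of 0.73 (0.68 to 0.79). PRR7, a transmembrane adaptor of T cells and synapses, had 4807 and 6690 counts, a log2 ratio of 0.72 (0.64 to 0.79). CBLB, a ubiquitin ligase that restrains tyrosine kinase signalling, was lower, at 1834 and 462 counts and a log2 ratio of -1.75 (-1.96 to -1.54). PAG1, at a log2 ratio of -0.48, had the sign of CBLB and not that of LIME1, NHERF1 and PRR7. The list was mixed. Against a ratio of 1, 5 of the 10 lay above (50%, beside 24% of all genes) and 2 below (20%, beside 25.2%).

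Phosphatases that act on SRC-family kinases had no call in either direction among the 8 of 9 that passed the minimum. Their median was -0.02. Against a ratio of 1, 2 of these 8 lay above (25%, beside 24% of all genes) and 4 below (50%, beside 25.2%). CD45 (PTPRC), the phosphatase that opens LCK in T cells, had 0 counts in both libraries. PTPRF was the most abundant, at 61260 counts in vehicle and 66792 in (R)-9b, a log2 ratio of 0.37 (0.34 to 0.39). The enzymes and carriers that acylate SRC-family kinases and move them to membranes had no call either among 9 of 10, with a median of 0.23. Of these, 7 lay above a ratio of 1 (77.8%, beside 24% of all genes) and 1 below (11.1%, beside 25.2%), the latter being PACSIN2, the most abundant of the list, at 21138 and 15687 counts and a log2 ratio of -0.19.

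Of 19 substrates and effectors of SRC, 18 passed the minimum, 0 were called higher and 3 lower (16.7%, beside 5.43% of all genes), and the median was -0.06. Against a ratio of 1, 6 of the 18 lay above (33.3%, beside 24% of all genes) and 9 below (50%, beside 25.2%). The docking protein GAB2 had 663 counts in vehicle and 199 in (R)-9b, a log2 ratio of -1.50 (-1.83 to -1.16). Its relative GAB1 had 346 and 123 counts, a log2 ratio of -1.25 (-1.68 to -0.81). KHDRBS1, the RNA-binding protein SAM68, had 17610 and 9584 counts, a log2 ratio of -0.64 (-0.69 to -0.59). STAT3, the transcription factor and most abundant of the list, had a log2 ratio of 0.11.

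**Figure D5:**
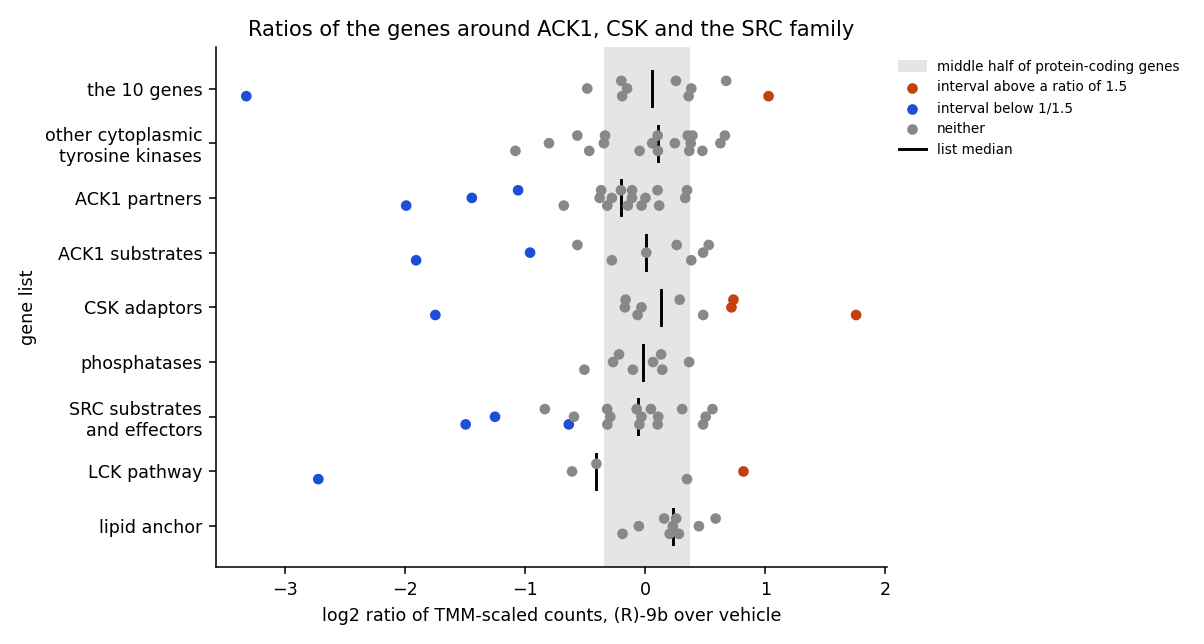
Log2 ratio, (R)-9b over vehicle, of each gene with at least 10 counts in all and more than 3 in each library, by list, with a black line at the median of the list and a grey band over the middle 50% of protein-coding genes. Called genes are red when higher and blue when lower, and the list medians lie between -0.41 and 0.23.

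The T-cell receptor genes that surround LCK in lymphocytes were mostly at the edge of detection. Of 18, 13 were under the minimum count, and 5 were at 0 counts in both libraries. PLCG1, which epithelial cells also use, was called higher, at 4627 counts in vehicle and 6901 in (R)-9b and a log2 ratio of 0.82 (0.74 to 0.89). CD4 was called lower, at 117 and 15 counts and a log2 ratio of -2.72 (-3.92 to -1.57). The median over the 5 genes tested was -0.41.

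LCK, FYN, LYN and PAG1 are genes of blood cells too, and such cells were looked for through their markers. The 11 T-cell markers summed to 1.94 CPM in vehicle and 1.26 in (R)-9b, of which CD8A gave 110 and 61 counts, and CD2, CD3D, CD3G and PTPRC had 0 in both libraries. A count of 0 allows up to 3 counts. The part of such cells in the LCK ratio was not tested. The 5 B-cell markers summed to 0.180 and 0.0355 CPM, and the 6 myeloid markers to 0.825 and 0.922 CPM. Of the myeloid markers, LYZ gave 17 and 31 counts and CSF1R gave 29 and 13. The 7 stromal and endothelial markers summed to 28.5 and 43.3 CPM, mainly from COL1A1 at 1114 and 2004 counts and VWF at 769 and 411. COL1A1 was higher in (R)-9b and VWF lower, with log2 ratios of 1.09 and -0.66. The sample labels call the line a breast cancer line. The 11 prostate markers found summed to 6282 CPM in vehicle and 11429 in (R)-9b, led by KLK3 at 146597 and 297728 counts, and the 8 breast markers to 6.68 and 2.46 CPM, led by LTF at 350 and 52 counts. Of these 11, 4 were called higher (36.4%, beside 6.03% of all genes) and 0 lower, among them SLC45A3, KLK2 and KLK3, with log2 ratios of 1.69, 1.45 and 1.26. Others of the list had ratios near 1, such as KRT18, at a log2 ratio of -0.09, and STEAP2, at -0.07.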

How the data were processed

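Poly-A RNA of C4-2B cells was sequenced with paired-end reads, 1 library per condition. The authors deposited gene counts as whole numbers without normalization. The authors' deposited gene CPM equal the count over the library total, and the deposited moderated log2 CPM carry a moderation not given in the sources used here. The authors also deposited transcript tables of estimated counts and CPM. The submitters' processing notes name STAR 2.5.1a, featureCounts 1.4.6-p5, Salmon 0.8.2 and hg38, without their roles, whereas the study's methods name another STAR version and Ensembl annotation. Columns belonged to these 2 libraries only.

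Repeated lines were dropped, leaving 60671 genes and 175045 transcripts. Counts were scaled by TMM (edgeR 4.0.16, R 4.3.3). Intervals were computed with scipy 1.17.1 (Python 3.11.15) on the counts divided by 2, rounded up, for genes with at least 10 counts, and were tested on simulated data. Intervals and floors cover counting error only, since PCR copies could not be told apart. For list medians, 3 counts replaced any lower count. Gene models came from GENCODE 29 and promoter windows from RefSeq (GRCh38.p14). Figures were drawn with matplotlib 3.10.9.

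The genes and lists were chosen with earlier results of these data known. Of each list, up to 4 called genes with the interval end nearest 0 furthest out, and the most abundant gene, were named, and for TNK2, CSK and LCK transcripts with at least 10% in either library. Other genes or transcripts named, such as those of FYN, were chosen after their values were seen. NHERF1 was matched through an older symbol, and 1 prostate marker was not matched. A gene that the naming rule covers is not reported here.

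Alternatives were other scalings (library totals, DESeq2 1.42.0 size factors, upper quartile, TMM without mitochondrially encoded genes), the deposited CPM and moderated log2 CPM, summed estimated counts, intervals on the counts as deposited, 5 added counts, minimum counts of 1 and 50, and other limits for a call.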

Additional observations from a re-analysis of the deposited data

How the results depend on the processing

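No paired analysis was possible because there was 1 library per condition. Of the 11 alternatives, 3 (the interval on the counts as deposited and both minimum counts) cannot move a ratio, and the deposited CPM repeat the library totals. Under the 7 others, of which the scalings shift all genes alike, no ratio of the 10 genes changed sign, and 67 of 70 values lay inside the interval given in the report. The 3 outside it were all of CSK, whose log2 ratio was 0.32 with library totals, with the deposited CPM and with the moderated log2 CPM, and 0.094 with summed estimated transcript counts (interval -0.08 to 0.27), which leave out the transcripts not analysed here. FYN ranged from -3.39 to -3.14 and LCK from 0.96 to 1.14. The number of genes called higher was 2 with the deposited CPM, the moderated log2 CPM and the point ratio, which have no interval and add TNK1. It was 0 with summed estimated counts, where LCK has fewer counts and a wider interval, 0 beyond a ratio of 2 and 4 beyond a ratio of 1. The number called lower was 5 beyond a ratio of 1. The median log2 ratio was -0.045 with summed estimated counts and -0.15 with a minimum of 50 counts, which drops MATK. Over protein-coding transcripts only, TNK2-227 held 69.2% in vehicle and 62.8% in (R)-9b, and CSK-202 held 94.7% and 93.2%. With at least 200 estimated counts in each library, 729 genes had another main transcript, against 1245 with 50.

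Depth limits MATK, the LCK and FYN transcripts and the T-cell genes. Library totals in place of TMM lowered each log2 ratio by 0.063. Mitochondrially encoded genes held 1.49% of counts in vehicle and 9.54% in (R)-9b, and leaving them out changed no call. The spread between cultures was not measured, so no difference here is shown to come from the treatment.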

Other observations

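Some of the genes next to these kinases gave further values. CYP1A2, a drug-metabolising P450 gene that lies 25.9 kb before CSK on the same strand, had 87 counts in vehicle and 2762 in (R)-9b, a log2 ratio of 5.23 with an interval from 4.78 to 5.68. LMAN1L, 9.52 kb after CSK, had 4 and 33 counts. CSK lies between them at a log2 ratio of 0.38. TRAF3IP2, an adaptor of IL-17 receptor signalling 54.1 kb from FYN, had 1847 and 1090 counts, a log2 ratio of -0.52 (-0.68 to -0.37), beside -3.32 for FYN. FAM167B, 2.38 kb before the upstream LCK start, had 24 and 36 counts, with an interval from -0.31 to 2.01. MANBAL, 27.4 kb from SRC, had a log2 ratio of 0.02 (-0.08 to 0.12), and ENOSF1, 8.91 kb from YES1, one of 0.27 (0.14 to 0.39). On the other side of YES1, 0.727 kb away, AP000894.4 had 137 and 72 counts, a log2 ratio of -0.69 (-1.32 to -0.10). AC124944.3, 1.13 kb from TNK2, had 68 and 147 counts, a log2 ratio of 1.35 (0.76 to 1.99). TGS1, 54.4 kb from LYN, had a log2 ratio of -0.54 (-0.69 to -0.39).

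YES1 and SRC each have a second coding transcript with another start, named after their values were seen. YES1-205 had 246 estimated counts in vehicle and 77.7 in (R)-9b, or 11.1% (9.31% to 13.1%) and 4.73% (3.40% to 6.44%) of the gene. SRC-204 had 454 and 341, or 35.8% and 28.3%. Both code for the same number of codons as the main form, 543 for YES1 and 536 for SRC.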
